A study of Mus musculus with 16 samples.

Results

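The 10 genes followed here belong to ceramide and sphingolipid metabolism in mouse adipose tissue: Sptlc1, Sptlc2, Sptlc3, Cers2, Cers5, Cers6, Degs1, Asah1, Smpd1 and Sphk1. They were found in the expression table by matching each row's RefSeq identifier to a gene symbol, which gave 42 of the 130343 rows and 10 of 35552 symbols. The male C57BL/6J mice were wild type and began their diets at 10 weeks of age. The obese mice received a high-fat diet (42% of energy from fat, with 0.2% cholesterol) for 12 to 14 months, and the lean mice a normal laboratory diet for the same time. Inguinal subcutaneous adipose tissue (SAT) and mesenteric visceral adipose tissue (VAT) were taken from each of 4 lean and 4 obese mice, giving 16 RNA-seq libraries in 4 groups of 4. The diet and the obesity it brought cannot be told apart.

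Ceramide is the lipid from which most other sphingolipids are built. In the de novo route, serine palmitoyltransferase joins serine to palmitoyl-CoA, ceramide synthases attach a fatty acid to the resulting base, and dihydroceramide desaturase introduces the double bond that turns dihydroceramide into ceramide. Ceramide is also released from sphingomyelin by sphingomyelinases, and it is broken down by ceramidases to sphingosine, which sphingosine kinases convert to sphingosine 1-phosphate (S1P). Ceramides are known as lipids that interfere with insulin signalling, and S1P as a ligand of cell surface receptors on endothelial and immune cells.

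Library totals ran from 1256082 counts in VAT lean 1 to 16614407 in SAT obese 3, and VAT obese 1 held 2247737. Levels below are CPM (counts scaled to a common library size) corrected by TMM factors, called normalized CPM, and a gene was called changed at an adjusted p below 0.05 (edgeR's quasi-likelihood test, Benjamini-Hochberg over 12186 features). The macrophage list (8 genes, 7 tested) had a summed level of 1255 to 1730 normalized CPM in lean SAT, 1961 to 2878 in obese SAT, 2185 to 2892 in lean VAT and 4440 to 6673 in obese VAT. Of its 7 tested genes, 5 rose with obesity in SAT and 6 in VAT, while Adgre1, which was not tested, had group means of 0.0365 to 0.112 normalized CPM. The adipocyte list (8 genes) lay between 36870 and 58200 normalized CPM in SAT and between 15350 and 34740 in VAT, and 1 of its genes fell in obese SAT (Cfd, log2 -1.48, adjusted p = 0.0234) and 4 in obese VAT. The list of lipid-associated macrophage markers (7 genes, 6 tested) was at 143 to 209 normalized CPM in lean SAT, 269.9 to 358 in obese SAT, 153 to 213 in lean VAT and 522 to 619 in 3 obese VAT libraries. VAT obese 4 stood apart from these at 1811. Of the 6 tested genes, 2 rose in SAT and 6 in VAT. Mesothelial markers marked the depot: the list of 5 genes was at 0.166 to 1.41 normalized CPM in SAT and 246 to 595 in VAT. In bulk tissue, fewer cells of a type and less RNA per cell cannot be told apart. The part of cell composition in the changes below was not tested.

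In GRCm39, the build of the deposited counts, the GENCODE annotation places Sptlc2 at chr12:87351832-87435267 on the minus strand, Degs1 at chr1:182103335-182110389 on the minus strand and Smpd1 at chr7:105203564-105207597 on the plus strand. The promoters of these 3 genes are shown because these members were called in a diet comparison or, for Degs1, had the smallest adjusted p between depots. Each is the 250 bases before the RefSeq start of the gene (GRCm38.p6), written 5′ to 3′ in the direction of transcription, and capitals mark the CACGTG E-box where it occurs.

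Sptlc2 (chr12:87388356-87388605, minus strand): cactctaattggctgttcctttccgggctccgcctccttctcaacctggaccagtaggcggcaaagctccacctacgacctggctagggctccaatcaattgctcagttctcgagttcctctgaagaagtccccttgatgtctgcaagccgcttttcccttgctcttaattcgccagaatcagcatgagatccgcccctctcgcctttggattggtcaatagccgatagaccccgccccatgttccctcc
Smpd1 (chr7:105554110-105554359, plus strand): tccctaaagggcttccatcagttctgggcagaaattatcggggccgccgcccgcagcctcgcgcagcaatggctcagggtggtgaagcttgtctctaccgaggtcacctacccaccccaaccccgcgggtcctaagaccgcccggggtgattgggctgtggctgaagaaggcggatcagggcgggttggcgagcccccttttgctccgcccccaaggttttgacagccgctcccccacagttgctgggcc
Degs1 (chr1:182282196-182282445, minus strand): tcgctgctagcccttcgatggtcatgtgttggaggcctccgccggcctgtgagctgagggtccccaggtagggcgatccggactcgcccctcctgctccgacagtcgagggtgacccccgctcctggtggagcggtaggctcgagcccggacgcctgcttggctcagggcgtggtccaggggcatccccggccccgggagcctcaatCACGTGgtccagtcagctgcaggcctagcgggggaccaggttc

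For 4 motifs, both strands were searched in these windows and in those of the other members. They were the E-box CACGTG, its longer form TCACGTGA, the AP-1 site TGANTCA and the sterol regulatory element TCACNCCAC. Among 32851 windows of the same length, 6.02%, 0.785%, 6.75% and 1.05% held them, and each TCACGTGA also counts as a CACGTG. The Degs1 window held CACGTG with its first base at -43 from the start, and windows of Cers2, Cers6 and Sphk1 held it too. The Sptlc2 and Smpd1 windows held none of the 4. A match is a string of letters and says nothing about binding.

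The members differed widely in counts and in the number of transcript rows they had in the table. Sptlc2, Cers5 and Smpd1 each had 1 row and gathered 26931, 25881 and 28798 counts over the 16 libraries. Degs1 had 2 rows and 6994 counts, Sptlc1 3 rows and 2403, and Cers2 4 rows and 3326. The other members were nearly unmeasured. Sphk1 had 13 rows and 34 counts, Asah1 11 rows and 29, Cers6 4 rows and 52, and Sptlc3 2 rows and 15. Over the protein-coding genes, the 8139 with a single row held 86.8% of the counts, and the 4528 with 6 or more rows held 1.09%, although the median of the genes' mean CPM was 0.162 in the former and 0.186 in the latter. How reads shared by several transcripts were counted is not stated, so a low count of a gene with several rows cannot be read as low expression. Of the 10 members, 6 passed the filter (CPM above 1 in at least 3 libraries), and the results on change below concern these 6.

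**Figure D1:**
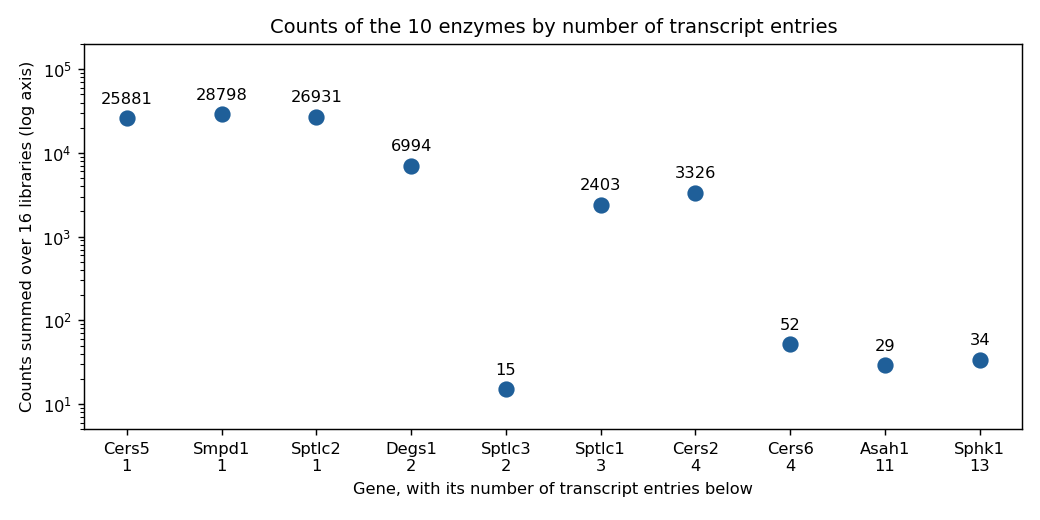
Counts summed over the 16 libraries (log axis) for each of the 10 enzymes, ordered by the number of transcript rows, which is printed under each name. The 3 genes with 1 row held 25881 to 28798 counts each, and Sptlc3, Cers6, Asah1 and Sphk1 held 15 to 52.

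Sptlc2, a catalytic subunit of serine palmitoyltransferase, rose with obesity in both depots. In SAT its level was 136, 127, 122 and 118 normalized CPM in the lean mice and 161, 152, 181 and 190.2 in the obese mice. Every obese library lay above every lean one. The increase was 1.36-fold (log2 0.44, SE 0.11, 95% interval 0.22 to 0.66, adjusted p = 0.00907). In VAT the lean mice had 141, 178, 148 and 159 normalized CPM and the obese mice 185, 206, 206 and 220.4, again without overlap. The increase there was 1.31-fold (log2 0.38, SE 0.11, 95% interval 0.16 to 0.61, adjusted p = 0.0205). The SAT call held in the 18 alternatives run, with an adjusted p of at most 0.0483. The VAT call was lost with no filter on low counts (0.171), without lean replicate 3 (0.0642) and without obese replicate 4 (0.0593).

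Sptlc1, the partner subunit, did not pass the test in either depot. Its level in SAT was 12.4 to 15.3 normalized CPM in lean mice and 15.5 to 17.5 in obese mice. The groups did not overlap, but the log2 difference of 0.20 had a 95% interval of -0.12 to 0.51 (adjusted p = 0.451). In VAT the values ran from 14.4 to 20.0 in lean mice and from 11.1 to 15.7 in obese mice, a log2 difference of -0.21 (95% interval -0.54 to 0.12, adjusted p = 0.462). Sptlc3, the alternative catalytic subunit, had 15 counts, all in 5 SAT libraries. Its 8 VAT libraries held no count. By depth alone this allows up to 0.19 CPM in the deepest and 2.39 CPM in the shallowest of them. The limit holds only if reads shared by its transcript rows were counted, which is not stated.

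**Figure D2:**
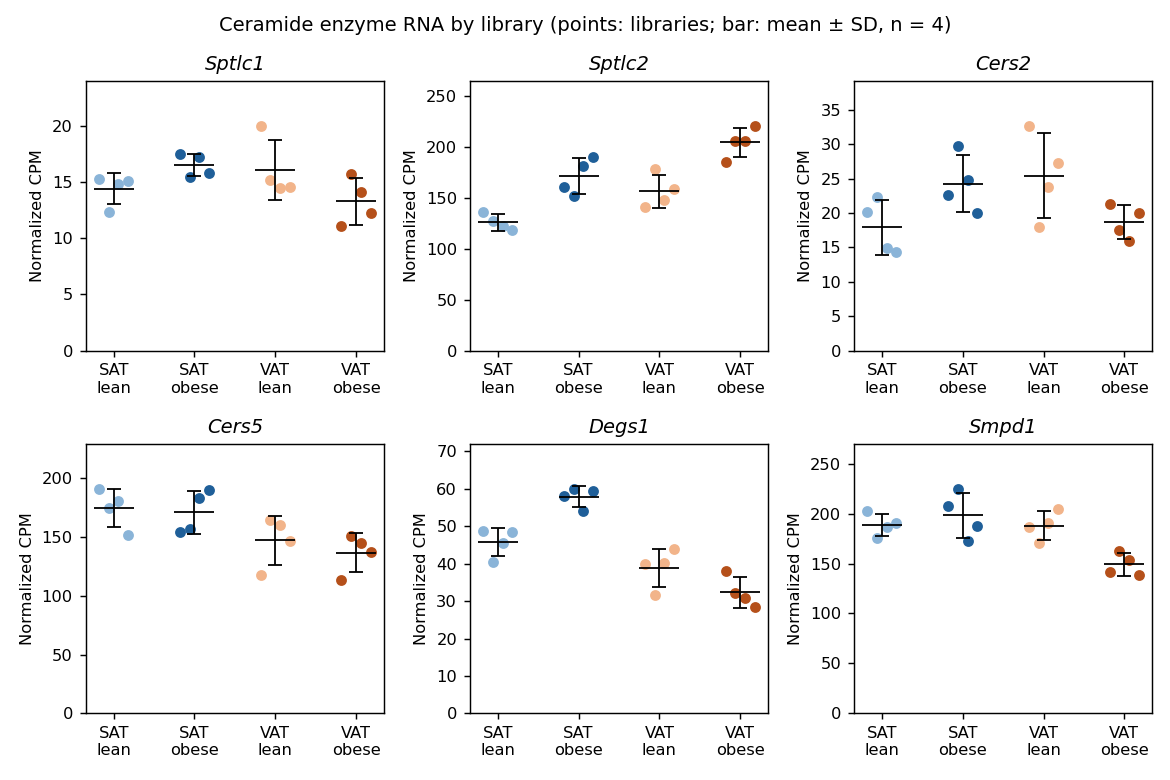
Normalized CPM of the 6 measured enzymes in each library (points), with the mean and SD of each group of 4 mice; axes start at 0. Sptlc2 rose with obesity in SAT and VAT, and Smpd1 was lower in obese VAT (139 to 163) than in lean VAT (170.2 to 205).

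Degs1, the dihydroceramide desaturase, had differences of opposite sign in the depots, and neither passed the test. In SAT it was at 48.6, 40.5, 45.4 and 48.4 normalized CPM in lean mice and 58.1, 60.0, 54.0 and 59.5 in obese mice. The groups did not overlap, and the log2 difference was 0.34 (SE 0.12, 95% interval 0.08 to 0.60, adjusted p = 0.0801). In VAT it was at 40.0, 31.6, 40.1 and 43.8 in lean mice and 38.1, 32.1, 30.9 and 28.4 in obese mice. These groups overlapped, and the log2 difference was -0.27 (SE 0.13, 95% interval -0.54 to -0.00, adjusted p = 0.196). DESeq2 called the SAT difference (adjusted p = 0.0459).

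Smpd1, the lysosomal acid sphingomyelinase that releases ceramide from sphingomyelin, was lower in obese VAT. Its level was 186, 170.2, 191 and 205 normalized CPM in lean VAT and 141, 163, 153 and 139 in obese VAT. The groups did not overlap, and the level was 0.794 times that of lean VAT (log2 -0.33, SE 0.11, 95% interval -0.55 to -0.11, adjusted p = 0.042). The call was fragile. It was lost in 13 of 18 alternatives, among them 7 of the 8 in which 1 mouse was left out (adjusted p 0.0528 to 0.196; without obese replicate 2 it was 0.0431). Without obese replicate 4, the mouse whose VAT stood apart in macrophage markers, the log2 difference was -0.28 (adjusted p = 0.182). In SAT the level was 175 to 202 normalized CPM in lean mice and 173 to 225 in obese mice, and the log2 difference of 0.07 (95% interval -0.15 to 0.29, adjusted p = 0.74) did not pass.

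The ceramide synthases did not pass in a diet comparison. Cers2, which makes very long chain ceramides, was at 14.3 to 22.3 normalized CPM in lean SAT and 20.0 to 29.7 in obese SAT (log2 0.43, 95% interval 0.05 to 0.81, adjusted p = 0.141). In VAT it was at 17.99 to 32.6 in lean mice and 15.95 to 21.3 in obese mice (log2 -0.41, 95% interval -0.81 to -0.01, adjusted p = 0.184). The groups overlapped in both depots. Cers5, which favours palmitoyl chains, was at 152 to 191 normalized CPM in lean SAT and 154 to 189.9 in obese SAT, and its log2 difference of -0.03 had a 95% interval of -0.28 to 0.22. In VAT the difference was -0.11 (95% interval -0.37 to 0.15, adjusted p = 0.642). Cers6, the other synthase of that chain length and a gene studied in obesity, had at most 13 counts in a library and was not tested.

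Asah1, the lysosomal acid ceramidase, had 0 to 6 counts in a library, all from 1 of its 11 rows. Sphk1, which phosphorylates sphingosine, likewise had 0 to 6. Neither can be compared between groups. Ratios within a library (Cers6 to Cers2, Asah1 to the macrophage list, Sphk1 to Asah1, each in both depots) depended on the 0.5 counts added to libraries at 0, and nothing is read from them; 0 of the 6 passed an exact permutation test (adjusted p 0.514 to 0.914).

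Read together, 1 of the 6 measured members was called in SAT, where 11.6% of all features were called, and 2 of 6 in VAT, where 12.2% were. Without overlap between diets were 3 of 6 in SAT (17.3% of all features) and 2 of 6 in VAT (14.3%). The members' median log2 difference was 0.27 in SAT and -0.24 in VAT, and that of all features -0.00 and -0.02. In each depot 0 of the 6 were both called and beyond a log2 difference of 1.5, the size limit of the study, as 2.59% of all features were in SAT and 3.22% in VAT.

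**Figure D3:**
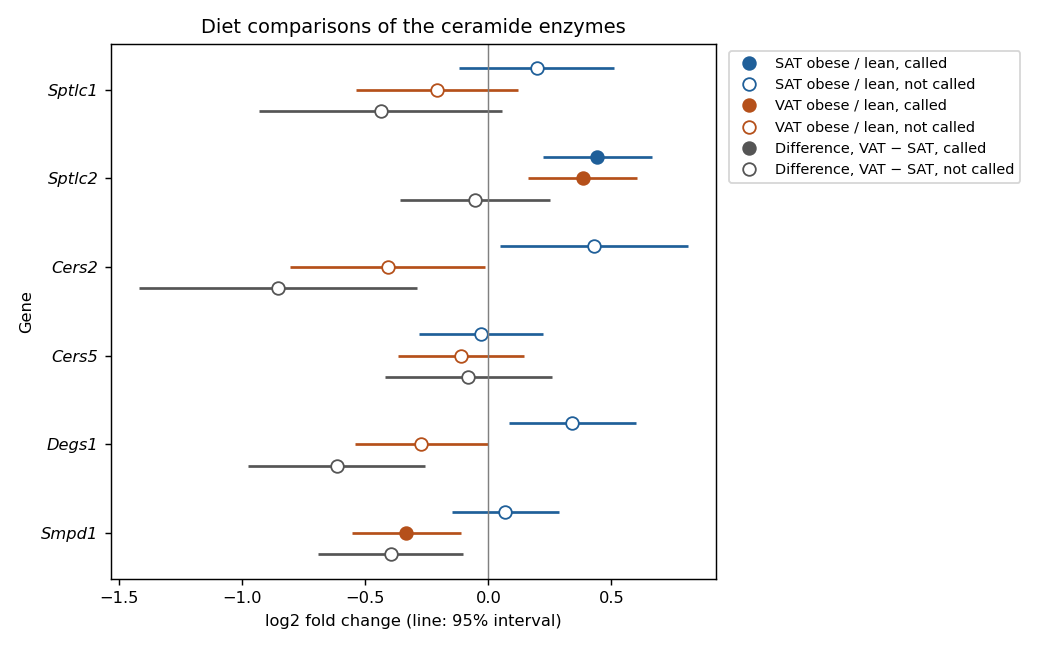
Log2 fold change of each measured enzyme (points) with its 95% interval (lines) for obese against lean SAT, obese against lean VAT, and the VAT response minus the SAT response; filled points are called. The called points are Sptlc2 in SAT (0.44) and VAT (0.38) and Smpd1 in VAT (-0.33), and the 6 differences between depots lie below 0.

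For the diet response itself, depots were compared within each mouse, and these depot differences were compared between obese and lean mice. No mouse had both diets. The response in VAT minus that in SAT was below 0 for the 6 members (50.2% of all features were above 0), and 0 of 6 were called, where 2.47% of all features were. By edgeR's unadjusted p, 3 of the 6 (Cers2, Degs1 and Smpd1) were under 0.05, as were 15.1% of all features. The difference was -0.86 for Cers2 (SE 0.27, 95% interval -1.42 to -0.29, adjusted p = 0.102) and -0.62 for Degs1 (SE 0.17, 95% interval -0.98 to -0.26, adjusted p = 0.0642). For Smpd1 it was -0.40 (95% interval -0.69 to -0.11, adjusted p = 0.149) and for Sptlc1 -0.44 (adjusted p = 0.401). Sptlc2, which rose in both depots, had a difference of -0.06 (95% interval -0.36 to 0.25). Other tools called the Degs1 difference: DESeq2 gave an adjusted p of 0.0277, limma voom 0.0396 and edgeR without its legacy setting 0.0499. It was also called without the mice of the 2 shallowest VAT libraries (0.0493). The Cers2 difference was called with no filter on low counts (0.0391) and without lean replicate 2 (0.0348).

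Between the depots, the largest gap of the 6 members was that of Degs1 in obese mice. In obese mice its level in VAT was 0.553 times that in SAT (log2 -0.86, SE 0.12, 95% interval -1.11 to -0.60, adjusted p = 1.71e-05), and VAT libraries (28.4 to 38.1 normalized CPM) lay below SAT libraries (54.0 to 60.0). The call held in the 17 alternatives run. Both Degs1 transcript rows were lower in obese VAT than in obese SAT when rows were tested singly (29.4% of all rows were called), the main one by -0.79 (adjusted p = 5.83e-05) and the minor one by -1.84 (adjusted p = 0.00521). In lean mice the log2 difference of -0.24 did not pass (adjusted p = 0.217). Smpd1 was also lower in obese VAT than in obese SAT (log2 -0.40, SE 0.10, adjusted p = 0.00368), a call that held in the 17 alternatives. Its lean difference was -0.01 (95% interval -0.21 to 0.20).

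Cers5 was lower in obese VAT than in obese SAT (114 to 151 against 154 to 189.9 normalized CPM; log2 -0.32, SE 0.12, adjusted p = 0.0366), but 10 of 17 alternatives lost the call, 6 of them with 1 mouse left out (lean replicates 2, 3 and 4 and obese replicates 1, 3 and 4; adjusted p 0.0634 to 0.218). Sptlc2 was higher in VAT than in SAT of lean mice (log2 0.32, SE 0.10, adjusted p = 0.0438), a call lost in 11 of 17 alternatives, on leaving out the same 6 mice among others (adjusted p 0.0568 to 0.253). In obese mice the Sptlc2 difference was 0.26 (adjusted p = 0.0577), and it was called without lean replicate 1, 2 or 4 (0.0372 to 0.0496), by limma voom (0.0217) and with single rows (0.0491). The lean depot difference of Cers2 (0.47, adjusted p = 0.11) was called without lean replicate 2 (0.0164). In all, 1 of 6 members was called in lean mice (15.9% of all features) and 3 of 6 in obese mice (31.4%). In lean mice 1 of 6 did not overlap between depots (18.1% of all features) and in obese mice 3 of 6 (30.2%). These 2 comparisons share libraries with the diet comparisons.

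**Figure D4:**
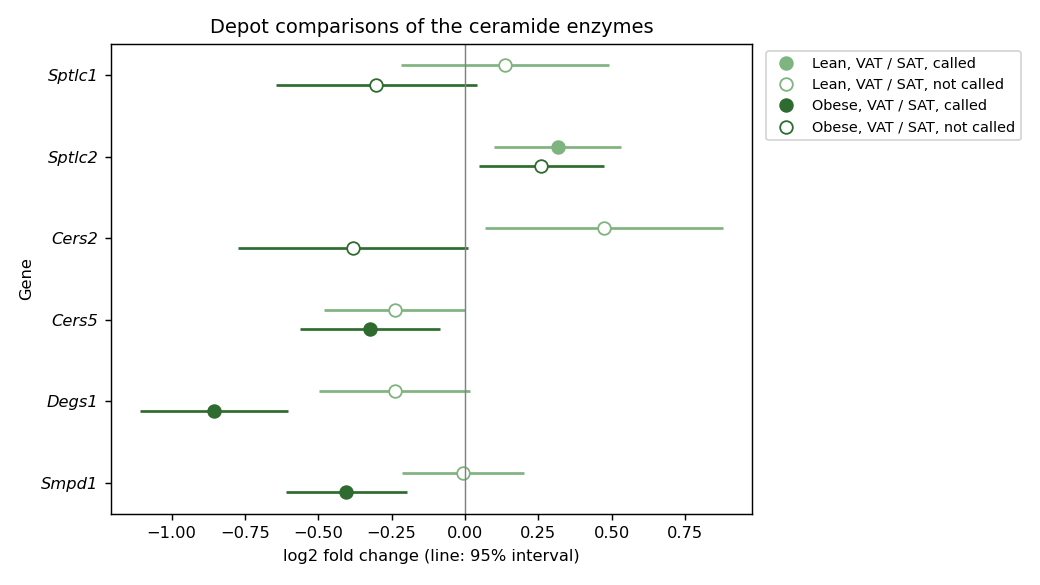
Log2 fold change of VAT against SAT (points) with its 95% interval (lines) for the 6 measured enzymes in lean and in obese mice; filled points are called. Degs1 in obese mice (-0.86) lies farthest from 0, and the lean comparison has 1 called point, Sptlc2 (0.32).

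The other genes of sphingolipid metabolism were taken as 59 genes in 5 lists, of which 42 passed the filter. With obesity, 7 rose and 2 fell in SAT, where 6.35% of all features rose and 5.25% fell. In VAT 6 rose and 1 fell, where 6.88% of all features rose and 5.28% fell. The median log2 difference of the 42 was 0.21 in SAT and 0.27 in VAT, against -0.00 and -0.02 for all features. Of de novo synthesis and its regulators, 0 of 6 rose and 2 fell (Kdsr and Sptssa) in SAT, and 1 rose (Degs2) and 1 fell (Kdsr) in VAT. Of sphingomyelin and ceramide transfer, 1 of 9 rose in SAT (Sgms1) and 0 of 9 were called in VAT. Of the ceramidases and the S1P enzymes, transporters and receptors, 3 of 12 rose in SAT and 1 of 12 in VAT, and those that rose were receptors. Of glycosphingolipid synthesis, 2 of 7 rose in SAT and 3 of 7 in VAT. Of the lysosomal breakdown genes, 1 of 8 rose in each depot.

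S1pr1, an S1P receptor of endothelium and lymphocytes, rose in both depots. It was at 417, 216, 227 and 179.9 normalized CPM in lean SAT and 589.5, 609, 507 and 674 in obese SAT (log2 1.19, SE 0.19, adjusted p = 0.000267). In VAT it was at 237 to 307 in lean mice and 404 to 601 in obese mice (log2 0.80, SE 0.19, adjusted p = 0.00758). The groups did not overlap in either depot, and both calls held in the 18 alternatives run. The summed level of the endothelial list (6 genes, 5 tested) was 159 to 296 normalized CPM in lean SAT and 220.3 to 324 in obese SAT. It was 181 to 245 in lean VAT and 198 to 278 in obese VAT. In either diet comparison 0 of its 5 tested genes were called. Pecam1, which was not tested, had group means of 0, and Cdh5, Tek and Egfl7 had group means of 0.713 to 3.14. Most of the level was that of Tie1 and Kdr. In SAT the log2 difference of Tie1 was 0.44 (95% interval 0.075 to 0.796, adjusted p = 0.11) and that of Kdr 0.04. In VAT they were 0.26 and -0.17. The lymphocyte list (6 genes, 5 tested) was at 3.54 to 8.49 in SAT, 30.4 to 224 in lean VAT and 168 to 300 in obese VAT, and 2 of its tested genes rose in VAT. The part of these cells in the S1pr1 change was not tested. S1pr5, another receptor of the family, was at 0.669 to 1.27 normalized CPM in lean SAT and 1.64 to 2.40 in obese SAT (log2 1.23, SE 0.36, adjusted p = 0.0314), a call lost in 8 of 18 alternatives, 6 of them with 1 mouse left out (lean replicates 1, 3 and 4 and obese replicates 1, 2 and 4; adjusted p 0.0569 to 0.115).

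Sgms1, a sphingomyelin synthase that consumes ceramide, rose in SAT, and its diet response differed between depots. It was at 2.74, 0.422, 1.24 and 1.49 normalized CPM in lean SAT and 7.24, 7.95, 4.72 and 5.11 in obese SAT (log2 1.99, SE 0.35, adjusted p = 0.000705). In VAT it was at 2.00 to 2.85 in lean mice and 1.58 to 3.81 in obese mice. The VAT response was lower than the SAT response by -2.18 (SE 0.48, 95% interval -3.18 to -1.18, adjusted p = 0.0168), the one called difference among the 42 genes in this fit. Elsewhere the difference was called for Gltp by DESeq2 (0.0166) and voom (0.0286), for Sptssa by DESeq2 (0.0481), for Glb1 by voom (0.0414), and without lean replicate 1 for S1pr1 (0.0159) and S1pr3 (0.0272), both also without the 2 mice of the shallowest VAT libraries (0.0388 and 0.0395). The Sgms1 call was lost in 6 of 17 alternatives, 4 of them with 1 mouse left out (lean replicates 2, 3 and 4 and obese replicate 4; adjusted p 0.0509 to 0.0824). Sgms1 has 23 transcript rows.

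Degs2, a desaturase that also hydroxylates and so makes phytoceramide, rose in VAT. It was at 5.33, 5.72, 4.20 and 5.16 normalized CPM in lean VAT and 12.2, 13.2, 11.7 and 16.01 in obese VAT, without overlap (log2 1.39, SE 0.23, adjusted p = 0.000329). The call held in the 18 alternatives. In SAT, Degs2 was at 2.77 to 4.90 in lean mice and 3.80 to 6.89 in obese mice and did not pass, and the difference between depots did not pass either (adjusted p = 0.145).

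Glycolipid genes that rose were Ugt8a, the galactosylceramide synthase (log2 2.09 in SAT, SE 0.53, adjusted p = 0.0122, with overlapping groups and a level of 0 to 0.187 normalized CPM in VAT), B4galt6, a lactosylceramide synthase (log2 0.95 in SAT, adjusted p = 0.02, and 0.78 in VAT, adjusted p = 0.0319), and B4galt5, its relative (log2 0.92 in VAT, adjusted p = 0.0128). Gltp, a glycolipid transfer protein, was at 213 to 263 normalized CPM in lean VAT and 337 to 363 in obese VAT (log2 0.59, SE 0.10, adjusted p = 0.00061). Of the lysosomal enzymes, Glb1, a beta-galactosidase, rose in SAT (log2 0.86, SE 0.16, adjusted p = 0.00089) and Gla, the alpha-galactosidase, in VAT (log2 0.80, SE 0.19, adjusted p = 0.00815). With 1 mouse left out, B4galt6 lost its SAT call without lean replicate 2, 3 or 4 or obese replicate 3 (adjusted p 0.0502 to 0.0695) and its VAT call without lean replicate 2, 3 or 4 or obese replicate 1 or 2 (0.0525 to 0.109), as well as with no filter on low counts (0.139) and with the 8 VAT libraries alone (0.0768). Without lean replicate 2 or obese replicate 4, the calls of Ugt8a (0.0628 to 0.0651) and B4galt5 (0.0509 to 0.0693) were lost, and without obese replicate 4 that of Gla (0.053). The size of the Ugt8a change in SAT ran from 1.65 (without lean replicate 3) to 2.84 (without lean replicate 1). The call of Gltp and the SAT call of Glb1 held in the 18 alternatives.

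**Figure D5:**
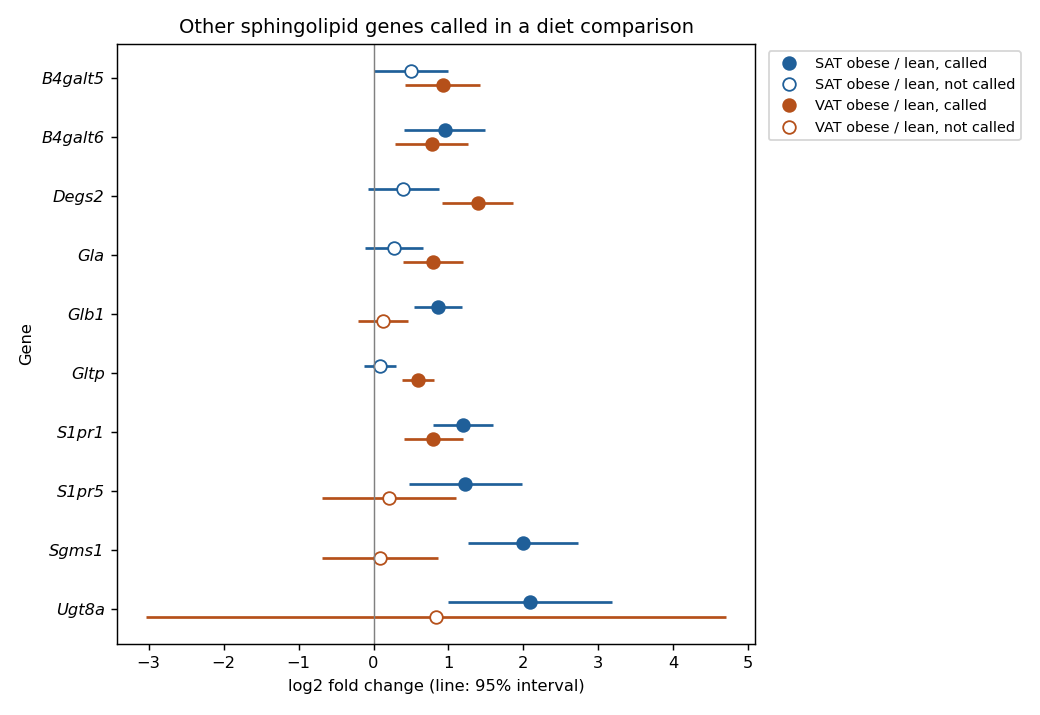
Log2 fold change with obesity (points) and 95% interval (lines) for the other sphingolipid genes with the largest called changes, in SAT and in VAT; filled points are called. S1pr1 and B4galt6 are called in both depots, and the widest interval is that of Ugt8a in VAT, where its level was near 0.

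Another 3 called genes lie outside the limit of 6 per comparison and were named after their values were seen. Kdsr, the reductase that follows serine palmitoyltransferase, fell in both depots. It was at 70.5 to 82.6 normalized CPM in lean SAT and 44.2 to 53.3 in obese SAT (log2 -0.61, SE 0.12, adjusted p = 0.00201), and at 57.7 to 66.9 in lean VAT and 35.4 to 53.2 in obese VAT (log2 -0.50, SE 0.12, adjusted p = 0.00899). The SAT call held in the 18 alternatives, and the VAT call was lost without lean replicate 3 (0.0643). Sptssa, a small subunit that activates serine palmitoyltransferase, fell in SAT (log2 -0.35, adjusted p = 0.0397), a call lost in 10 of 18 alternatives, 7 of them with 1 mouse left out (0.0528 to 0.131; it held without obese replicate 4). S1pr3, an S1P receptor, rose in SAT (log2 0.58, adjusted p = 0.0318), a call lost without lean replicate 2 or 3 or obese replicate 2 or 3 (0.0854 to 0.137).

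The genes with the pattern most like that of each member called in a diet comparison were found among 3972 genes, by the root mean square difference of log2 levels centred on each gene's mean over the 16 libraries. They were Tpm4 (0.122) and Dcaf7 (0.131) for Sptlc2, whose own SD was 0.283. For Smpd1, with an SD of 0.196, they were Cox15 (0.094) and Phb (0.098).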

How the data were processed

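Per the labels and the study's methods, poly(A) RNA was sequenced from SAT and VAT of 4 lean and 4 obese mice. The submitters' processing notes name Trim Galore 0.6.6, HISAT2 2.2.0, HTSeq 0.13.5, edgeR 3.34.0 and GRCm39. The authors deposited raw counts and CPM per transcript. The CPM equal the counts over the column total (within 4.9e-10) and were not used further. How shared reads and strand were handled is not given in the sources used here.

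Counts were summed per symbol (106811 of 130343 rows had one) and tested by the quasi-likelihood method of edgeR (version 4.0.16, R 4.3.3; legacy=TRUE) after TMM scaling. Features needed a CPM above 1 in 3 or more libraries. Diet was tested within each depot in 1 fit of 16 libraries. Depots, and the difference of the diet response, were tested with the mouse as a block. SAT and VAT of 1 mouse carry the same number, and their deviations from the group means correlated at -0.001 to 0.175 (8 pairs), against -0.155 to 0.117 for different mice (24 pairs) and -0.093 to 0.172 for different mice with the same number across diets (8 pairs). The medians were 0.077, -0.037 and 0.068. The 24 pairs of libraries within groups correlated at 0.907 to 0.983 and none was a copy. Alternatives were RLE size factors, no filter, filterByExpr, legacy=FALSE, single rows, DESeq2 1.42.0 and limma 3.58.1 voom (correlation within mouse 0.136). Diet was also tested with the 8 libraries of 1 depot and with a block for the replicate number, which links no animals across diets. Depots and the difference were also tested without the mouse block. Each mouse was left out in turn, and lean replicate 1 and obese replicate 1 together. The fits were tested on simulated data. They recovered most log2 differences of 2 within a depot but few of the size seen in the members, so a member that was not called is not shown to be unchanged. For the difference between depots, false calls exceeded the nominal share in 1 of 2 runs. Motifs and figures used Python 3.11.15.

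All 10 members were described. Of the other pathway genes, the 6 with the largest called change per diet comparison were named. The members and lists were chosen with earlier results of these data known.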

Additional observations from a re-analysis of the deposited data

Results flagged for a closer look

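In 8 of 76 groups of 4 libraries examined, 1 library stood far from the other 3 by Dixon's criterion, which chance meets in about 1 of 20 groups. Among the members, Sptlc1 was at 12.4 normalized CPM in SAT lean 2 (the others 14.8 to 15.3) and at 20.0 in VAT lean 1 (the others 14.4 to 15.2), the library with the fewest counts. Among the other sphingolipid genes, Sptssa was at 169 in SAT obese 4 (the others 134 to 137), Degs2 at 2.77 in SAT lean 3 (4.69 to 4.90), B4galt6 at 11.4 in VAT obese 1 (6.89 to 7.58), Glb1 at 7.03 in SAT lean 2 (10.1 to 10.7) and Gla at 48.5 in VAT obese 4 (23.99 to 27.8), the library with 1811 normalized CPM of lipid-associated macrophage markers (522 to 619 in the other 3). Without that mouse the VAT calls of 4 genes were lost, while genes called in VAT fell from 1482 to 847. The log2 difference was 0.37 without it and 0.38 with it for Sptlc2 (edgeR adjusted p = 0.0593 without it), -0.28 and -0.33 for Smpd1 (0.182), 0.81 and 0.92 for B4galt5 (0.0693), and 0.51 and 0.80 for Gla (0.053). Smpd1 lost its call without 6 of the other 7 mice as well. Ugt8a was at 0.119 in VAT lean 2 and at 0 in the other 3. The diet response of Sgms1 differed between depots by -2.18 on the log2 scale (VAT minus SAT, edgeR adjusted p = 0.0168).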

How the results depend on the processing

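Of the members' values under the alternatives, 472 stayed on the same side of the threshold, 37 lost a call, 13 gained one and 0 changed the direction of a called value. The 472 include values near 0 that were called in neither fit and changed sign, such as Cers5 in SAT (-0.107 to 0.016 with 1 mouse left out). The main counts of members called were 1 in SAT, 2 in VAT, 1 and 3 between depots (lean and obese mice) and 0 for the difference of the diet response. In VAT, 1 was called with RLE size factors, with filterByExpr, with single rows, with 8 libraries of the depot and without lean replicate 1 and obese replicate 1 together (an alternative chosen after seeing the data), and 0 with no filter. In SAT, DESeq2 called 2. Between depots in lean mice, 0 were called with RLE, no filter, filterByExpr, single rows and no mouse block. For the difference, 1 was called with no filter, legacy=FALSE, DESeq2, voom and without both shallow mice. Genes called for the difference numbered 301, and 139 without the mouse block. Beyond a log2 of 1.5 lay 80, and 138 with no filter.

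With 1 mouse left out, members called numbered 0 to 2 in VAT, 0 to 1 between depots in lean mice, 2 to 4 in obese mice and 0 to 1 for the difference. Genes called ranged from 926 to 1468 in SAT, 847 to 1626 in VAT (230 to 463 beyond 1.5), 1276 to 1945 and 2490 to 4075 between depots in lean and obese mice, and 134 to 386 for the difference (44 to 98 beyond 1.5). The lowest counts came without lean replicate 2 in SAT, without lean replicate 3 between depots in lean mice, and otherwise without obese replicate 4. The replicate numbers link SAT and VAT of a mouse; across diets they link no animals. The causes of these shifts were not tested. Depth limits VAT lean 1 and VAT obese 1 most, and 4 of the 10 members had too few counts for any test.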
